A study of Rattus norvegicus with 16 samples.

Results

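Carbonic anhydrases are zinc enzymes that interconvert carbon dioxide and bicarbonate with release of a proton. The family members differ mainly in where they sit: in the cytosol, in mitochondria, or anchored in a membrane with the active site facing outwards. In heart muscle they feed bicarbonate exchangers and lactate-proton cotransporters, and so take part in control of intracellular pH. The set described here holds 9 genes of the family (Car1, Car2, Car3, Car4, Car5b, Car8, Car9, Car13 and Car14), out of 14324 genes named on the array. Of these, Car8 encodes a related protein without enzyme activity. A gene was represented by the brightest probe set, by mean over all 16 arrays, whose platform annotation gives that symbol alone, and since each of the 9 genes had 1 such probe set, brightness decided nothing. The genes were selected on their HHR and NHR values, since the set was proposed with earlier strain results of these data known. Their strain differences are therefore a description of the family, and their counts are no independent support for a difference.

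RNA was measured in hearts of 16 rat pups aged 2 days, each on its own Affymetrix Rat Gene 1.0 ST array. The HHR (Hypertrophic Heart Rat) is an inbred strain with inherited cardiac enlargement. Its 8 pups were 4 females and 4 males, and the 8 pups of its control strain, the Normal Heart Rat (NHR), were also 4 females and 4 males. The labels record no transgene and no treatment. The labels describe ventricles cut from the atria in one place and the whole heart in another. No source used here gives litter or dam, so effects of litter and of strain cannot be told apart. The same holds for a change in RNA level and a strain difference in sequence under the probes.

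All values are deposited log2 expression values, on which 1 unit is a doubling of signal. Array medians lay between 7.19 and 7.28. All 10 cardiomyocyte markers examined (among them Tnnt2, Myh6 and Ryr2) exceeded the dim limit of 6.57 (the 40th percentile of the table) on 4 or more arrays, as did all 9 measured atrial markers, while 0 of 9 skeletal muscle markers did. The summed atrial level was 14.43 to 14.75 in HHR hearts and 14.16 to 14.48 in NHR hearts (log2 of the summed linear values). On the leading component of variation within groups (26.7% of it) the NHR arrays spread to both ends. NHR female 3, NHR female 4 and NHR male 4 scored 14.4, 15.1 and 22.6. NHR female 1, NHR female 2, NHR male 1 and NHR male 2 scored -16.9, -12.6, -11.1 and -13.2. NHR male 3 scored 1.74, and the HHR arrays lay between -3.72 and 7.48. The array numbered 4 scored highest in each of the 4 groups, at 2.22 in HHR females and 7.48 in HHR males. Strain results are also given without the 3 arrays at the upper end, called below the 3 NHR arrays that stand apart. The arrays at the lower end were not left out together. HHR was compared with NHR by limma on all 27342 probe sets with Benjamini-Hochberg adjustment, and a gene passed the test at an adjusted p under 0.05. For the members these p-values place each gene within the whole table and are not independent evidence.

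Of the 9 genes, Car3, Car8 and Car14 rose in HHR hearts, Car4 fell, and 5 did not pass the test. That is 44.4% of the set, beside 20.7% of all probe sets and 23.1% of named genes, with 9.64% of probe sets and 11.8% of named genes called higher, and 11.0% of probe sets and 11.2% of named genes called lower. At least 1.5-fold differences that passed were found for Car3 and Car4, beside 0.838% of all probe sets. With the 6 further carbonic anhydrase genes that the annotation names (Car5a, Car6, Car7, Car11, Car12 and Car15), of which 0 passed limma's test and 2 had an unadjusted p under 0.05, the share was 4 of 15 genes, or 26.7%. Without NHR male 4, Car12 also passed (limma adjusted p = 0.00201). The median difference of the 9 genes was 0.07, against -0.03 over all probe sets, and their median size was 0.15, against 0.08. Car4 and Car14 were the members whose strains did not overlap on any array, which held for 4.15% of all probe sets (1.95% with HHR higher and 2.20% with HHR lower). The membrane-bound enzymes Car4 and Car14 thus passed in opposite directions.

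**Figure D1:**
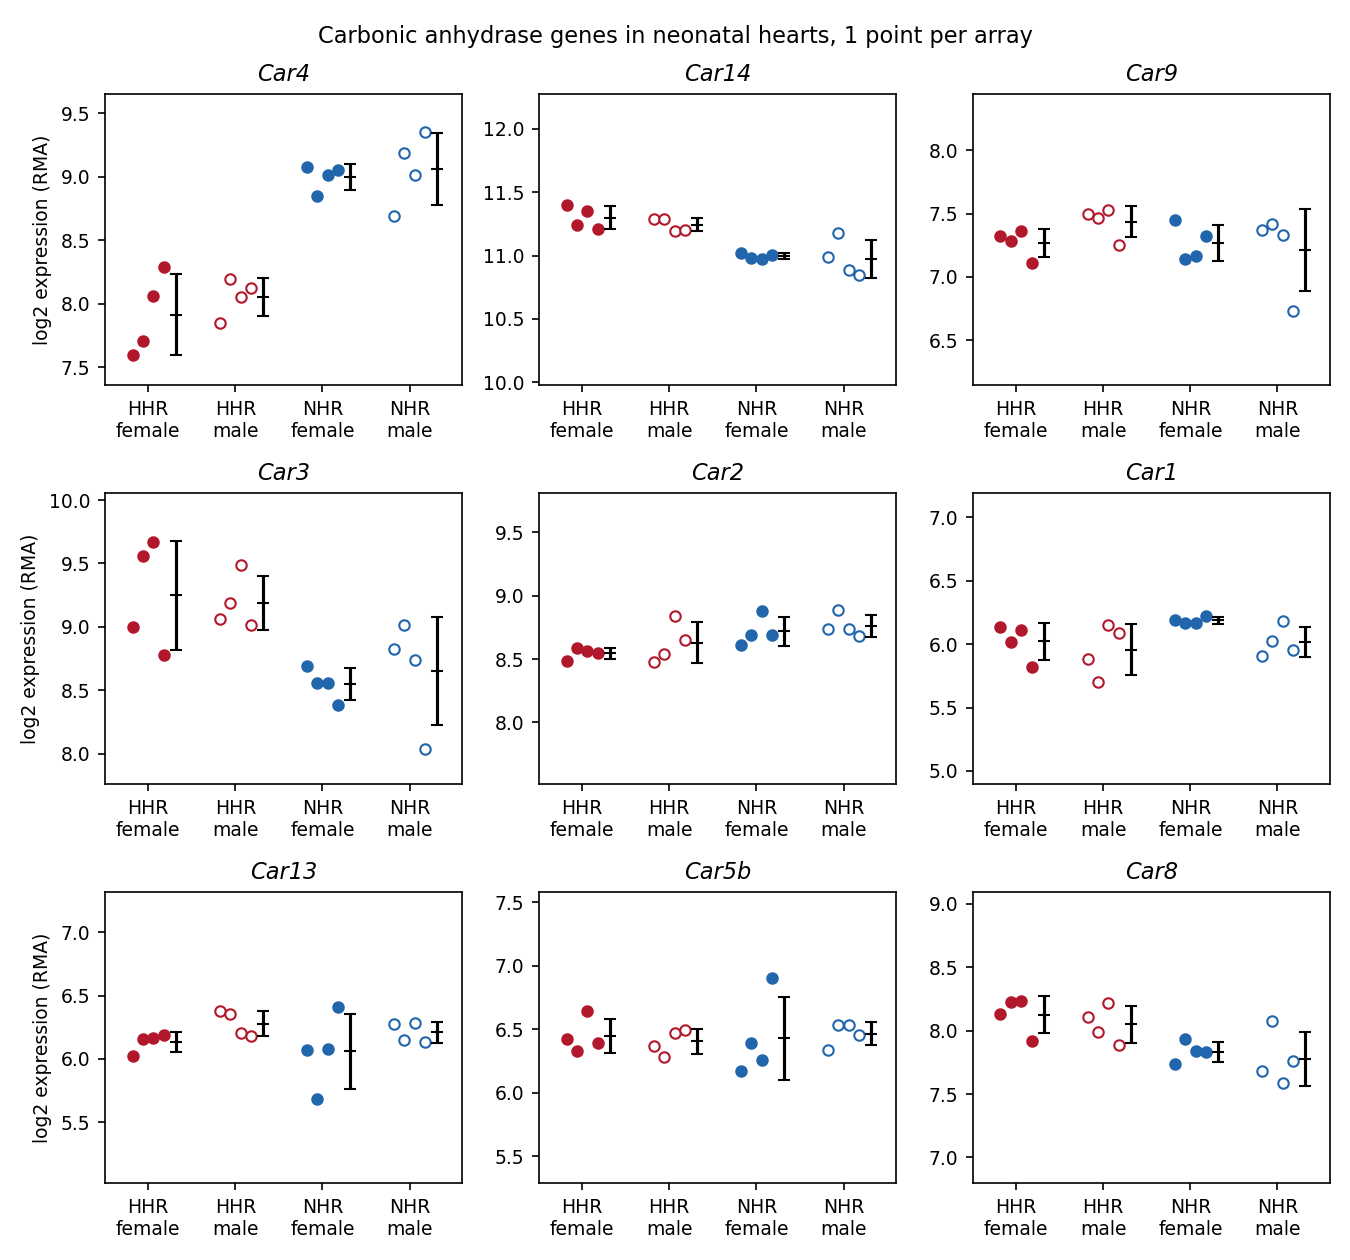
Log2 expression of the 9 carbonic anhydrase genes (y axis, RMA values, the same span of 2.3 units in every panel) in the 4 groups (x axis), 1 point per array, filled for females and open for males, with the group mean and SD beside the points (n = 4 each). Car4 lies lower and Car14 higher in every HHR array than in any NHR array, and the other panels overlap.

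The sequences before the starts of Car4 and Car14, the members with opposite and non-overlapping strain differences, are shown as genomic context. They are the 250 bases before the transcript start in RefSeq's promoter table, build GRCr8, where 4 of the 9 genes had an entry (Car4, Car5b, Car9 and Car14). Capitals mark ACGTG on either strand, the core that hypoxia-inducible factors bind, so a site on the opposite strand reads CACGT. The Car4 window is chr10:70325108-70325357 on the plus strand and the Car14 window is chr2:186138165-186138414 on the minus strand, each printed 5′ to 3′ in the direction of the gene.
Car4: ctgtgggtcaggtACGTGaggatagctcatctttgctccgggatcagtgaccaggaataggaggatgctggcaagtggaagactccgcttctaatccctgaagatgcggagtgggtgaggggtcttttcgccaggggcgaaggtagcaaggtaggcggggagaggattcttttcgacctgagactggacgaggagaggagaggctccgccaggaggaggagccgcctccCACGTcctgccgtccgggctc
Car14: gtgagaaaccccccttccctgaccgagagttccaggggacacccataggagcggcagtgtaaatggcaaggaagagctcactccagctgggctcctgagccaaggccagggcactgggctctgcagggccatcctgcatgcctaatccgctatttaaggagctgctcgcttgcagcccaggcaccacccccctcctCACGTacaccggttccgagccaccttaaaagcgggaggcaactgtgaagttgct

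ACGTG occurred at 2 places in the Car4 window and at 1 in the Car14 window. It was in neither the Car9 nor the Car5b window, and 16.6% of the 33469 RefSeq windows of this length held it on either strand. CANNTG, the E-box pattern, occurred at 1 place in the Car4 window, 2 in the Car14 window and 1 in the Car9 window, against 65.5% of all windows with at least 1 match. TATAAA (12.9% of all windows), CCAAT (34% of all windows), GCGTG (25.9% of all windows), MEF2 sites (2.96% of all windows) and CArG boxes (1.5% of all windows) were found in 0 of the 4 windows, searched on both strands. GATAA (23.5% of all windows) was found in the Car9 window alone of the 4. These matches describe letters in the reference strain's genome and say nothing of the HHR or NHR sequence.

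Car4 encodes an enzyme held on the outer cell surface by a glycolipid anchor, typical of capillary endothelium and also present on muscle membranes. In females Car4 had log2 values of 7.59, 7.71, 8.06 and 8.29 in HHR hearts, against 9.08, 8.85, 9.02 and 9.05 in NHR hearts. In males it had 7.85, 8.19, 8.05 and 8.12 in HHR hearts, against 8.69, 9.19, 9.01 and 9.35 in NHR hearts. The highest HHR array, female 4, lay below the lowest NHR array, male 1. Car4 averaged 7.98 ± 0.24 in HHR and 9.03 ± 0.20 in NHR (SD, n = 8 each), and the difference was -1.05 (SE 0.10, 95% confidence interval -1.26 to -0.83, limma adjusted p = 3.39e-06). Signal in NHR was thus 2.07 times that in HHR, and 0.135% of all probe sets differed at least 2-fold and passed the test. Fewer cells of a type and less RNA per cell cannot be told apart in whole tissue.

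Without the 3 NHR arrays that stand apart the Car4 difference was -0.98 (adjusted p = 1.18e-04), and leaving out any single array gave -1.11 to -0.99. Of 10 measured endothelial markers 6 fell, 1 rose and 3 did not pass, which is 70% called beside 23.1% of named genes. The claudin gene Cldn5, of tight junctions, gave -0.41 (SE 0.05, adjusted p = 6.8e-05), and the adhesion molecule gene Esam gave 0.22 (SE 0.05, adjusted p = 0.00441). The summed endothelial level was 13.83 to 13.95 in HHR hearts and 13.91 to 14.06 in NHR hearts, a mean difference of -0.11 beside -1.05 for Car4. Pecam1, Kdr, Eng, Vwf and Ednrb of that list were not analysed here. The part of endothelial content in the Car4 result was not tested.

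Car14 encodes a membrane-spanning enzyme with an outward-facing active site, found in heart muscle. In females Car14 had log2 values of 11.40, 11.24, 11.35 and 11.21 in HHR hearts, against 11.02, 10.98, 10.97 and 11.01 in NHR hearts. In males it had 11.29, 11.28, 11.19 and 11.20 in HHR hearts, against 10.99, 11.18, 10.89 and 10.85 in NHR hearts. The lowest HHR array, male 3 at 11.19, stood just above the highest NHR array, male 2 at 11.18, so the strains did not overlap but nearly met. Car14 averaged 11.27 ± 0.08 in HHR and 10.99 ± 0.10 in NHR (SD, n = 8 each), a difference of 0.29 (SE 0.05, 95% confidence interval 0.18 to 0.39, limma adjusted p = 6.9e-04), or 1.22-fold. The rise was smaller in size than the fall of Car4. Without the 3 NHR arrays that stand apart it was 0.26 (adjusted p = 0.00607). Of 10 cardiomyocyte markers 0 rose and 6 fell, with summed levels of 16.78 to 16.88 in HHR hearts and 16.84 to 16.94 in NHR hearts, while 5 of 9 atrial markers rose and 1 fell. These are 60% and 66.7% of the lists, beside 23.1% of named genes. Nppa and Myl7 had the highest levels of the atrial list and weigh most in the summed atrial level. Nppa rose by 0.34 (limma adjusted p = 2.88e-04), and Myl7 differed by 0.07 and did not pass (adjusted p = 0.565). The part of heart muscle and atrial content in the Car14 result was not tested.

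Because both genes were read on the same array, the Car14 to Car4 log2 ratio is free of any overall shift in brightness of an array. The ratio was 2.92 to 3.81 in HHR hearts and 1.49 to 2.29 in NHR hearts, without overlap. Its mean was 3.29 ± 0.29 in HHR and 1.95 ± 0.23 in NHR (SD, n = 8 each), a shift of 1.33. The pair was chosen after the strain differences were known, so the shift is given without a test, and the ratio shows unequal change rather than the level of either enzyme. The plot of the 2 genes array by array shows the same separation.

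**Figure D2:**
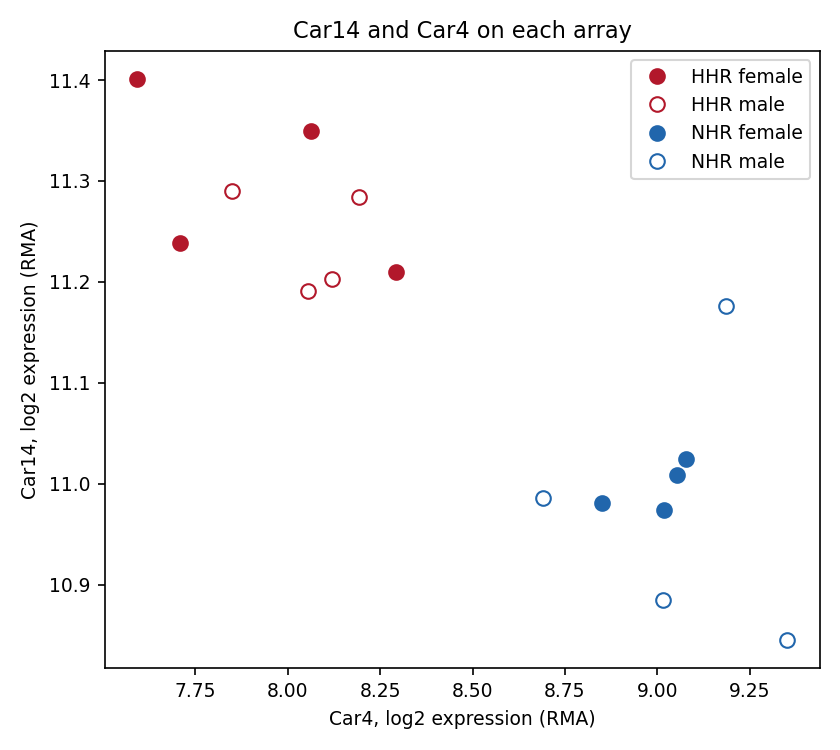
Log2 expression of Car14 (y axis) against Car4 (x axis), 1 point per array, red for HHR and blue for NHR, filled for females and open for males. The 8 HHR arrays lie at the upper left (Car4 up to 8.29, Car14 from 11.19) and the 8 NHR arrays at the lower right (Car4 from 8.69, Car14 up to 11.18).

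Car9 encodes the other membrane-spanning enzyme of the set, known as a target of hypoxia-inducible factor in tumours. It ranged from 7.11 to 7.53 (median 7.34) in HHR hearts and from 6.73 to 7.45 (median 7.32) in NHR hearts, and the strains overlapped. The difference was 0.11 (SE 0.09, 95% confidence interval -0.07 to 0.30, limma adjusted p = 0.393), or 0.02 (adjusted p = 0.892) without the 3 NHR arrays that stand apart, which include the lowest value, NHR male 4.

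Of 15 genes of a hypoxia list 2 rose, 2 fell and 11 did not pass, with a median difference of -0.00283. The called genes are 26.7% of the list, beside 23.1% of named genes. Hif1a and Epas1 of this list encode hypoxia-inducible factors themselves. They differed by -0.02 and -0.00283, did not pass, and the Epas1 value is the median. Egln1, an oxygen-sensing prolyl hydroxylase, rose by 0.46 (SE 0.11, limma adjusted p = 0.00615), and Pgk1, a glycolytic kinase, by 0.22 (SE 0.05, adjusted p = 0.00302). Slc2a1, the basal glucose transporter, fell by 0.48 (SE 0.07, adjusted p = 2.09e-04), and Pdk1, which restrains pyruvate dehydrogenase, fell by 0.25 (SE 0.06, adjusted p = 0.00592). Without the 3 NHR arrays that stand apart Pdk1 did not pass (-0.17, adjusted p = 0.0526), and Egln1 was 0.26 (adjusted p = 0.0445).

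Car3 encodes a cytosolic enzyme of low activity that is abundant in slow skeletal muscle and fat. In females Car3 had log2 values of 8.997, 9.56, 9.67 and 8.78 in HHR hearts, against 8.69, 8.56, 8.55 and 8.38 in NHR hearts. In males it had 9.06, 9.19, 9.49 and 9.01 in HHR hearts, against 8.82, 9.01, 8.74 and 8.04 in NHR hearts. The strains overlapped between HHR female 4 at the low end and NHR male 2 at the high end, and 5 of 8 HHR arrays lay above every NHR array. Car3 averaged 9.22 ± 0.32 in HHR and 8.60 ± 0.30 in NHR (SD, n = 8 each), a difference of 0.62 (SE 0.14, 95% confidence interval 0.32 to 0.91, limma adjusted p = 0.00465), or 1.54-fold. Its spread within a strain was the widest of the 9 genes in both strains, and the difference was 0.48 (adjusted p = 0.0284) without the 3 NHR arrays that stand apart.

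Car3 is best known from skeletal muscle and fat, so markers of both were examined. Of 9 skeletal muscle markers 0 rose and 1 fell (Myog, -0.17, named after its value was seen), and all 9, Myod1 and Tnnt3 among them, lay under the dim limit, with summed levels of 9.16 to 9.25 in HHR hearts and 9.09 to 9.33 in NHR hearts. Of 9 adipocyte markers 0 rose and 2 fell, namely Fabp4, a fatty acid carrier also made by endothelium (-0.64, SE 0.14, limma adjusted p = 0.00433), and Lipe, hormone-sensitive lipase (-0.38, SE 0.05, adjusted p = 9.95e-05). The shares called were 11.1% of the skeletal muscle list and 22.2% of the adipocyte list, beside 23.1% of named genes. The summed adipocyte level was 11.14 to 11.43 in HHR hearts and 11.42 to 11.96 in NHR hearts. Fabp4 and Lipe had the highest levels of the list and weigh most in this sum. The other adipocyte markers, Adipoq and Plin1 among them, differed by -0.11 to 0.05 and did not pass. Adipoq, Cidec, Lep and Ucp1 of that list lay under the dim limit. The part of skeletal muscle or fat content in the Car3 result was not tested.

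Car3 lies in a cluster on chromosome 2, where the RefSeq table of assembly GRCr8 lists Car2, Car3, Car1 and Car13 in that order. Car3 was the member of this cluster that passed the strain test. Car2, a highly active cytosolic enzyme of red cells and many other tissues, ranged from 8.48 to 8.84 (median 8.56) in HHR hearts and from 8.61 to 8.89 (median 8.71) in NHR hearts. Its difference was -0.15 (SE 0.06, 95% confidence interval -0.27 to -0.04, limma adjusted p = 0.0591), just outside the threshold. Without HHR male 3 it was -0.19 (adjusted p = 0.0152) and without NHR female 1 it was -0.17 (adjusted p = 0.0421), both past the threshold. It also passed when dim probe sets were left out before adjustment (adjusted p = 0.0409) and when single-gene probe sets alone were tested (adjusted p = 0.0489). Without the 3 NHR arrays that stand apart Car2 did not pass (-0.13, adjusted p = 0.163), and 21 of 26 alternatives left it outside the threshold.

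Car1, the abundant cytosolic enzyme of mature red cells, ranged from 5.70 to 6.15 (median 6.05) in HHR hearts and from 5.90 to 6.23 (median 6.17) in NHR hearts, a difference of -0.11 (SE 0.07, 95% confidence interval -0.25 to 0.03, limma adjusted p = 0.248). Car13, a further cytosolic enzyme, ranged from 6.02 to 6.37 (median 6.18) in HHR hearts and from 5.69 to 6.41 (median 6.14) in NHR hearts, a difference of 0.07 (SE 0.08, 95% confidence interval -0.09 to 0.23, adjusted p = 0.563). The Car13 difference was 0.0067 without NHR female 2, 0.13 without NHR female 4 and 0.15 without the 3 NHR arrays that stand apart, and the Car1 difference was -0.07 without HHR male 2. Car1, Car13 and Car5b did not pass the filter on dim probe sets, and the other 6 members did. A value at that level cannot be told from absence of the RNA. The log2 ratio of Car3 to Car2 averaged 0.63 ± 0.29 in HHR and -0.14 ± 0.27 in NHR (SD, n = 8 each), a shift of 0.77 with all 8 HHR arrays above the highest NHR array, given without a test because the cluster was examined after its differences were known.

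Red cell genes moved both ways beside Car1 and Car2. Of 11 measured erythroid markers 3 rose, 2 fell and 6 did not pass. Hbb, beta-globin, rose by 0.45 (SE 0.10, limma adjusted p = 0.00433), as did the embryonic globin gene Hbe1 (0.76) and Ahsp, a chaperone of alpha-globin (0.46). Ank1, the red cell ankyrin, fell by 0.21, and Epb42, a red cell membrane skeleton protein, fell by 0.55 (SE 0.07, adjusted p = 9.35e-05). The summed erythroid level was 13.07 to 13.50 in HHR hearts and 12.76 to 13.39 in NHR hearts. Its mean difference was 0.30, and Hbb, with means of 12.63 in HHR and 12.18 in NHR, weighs most in this sum. The part of blood content in the values of Car1 and Car2 was not tested.

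Car5b encodes a mitochondrial enzyme and lies on the X chromosome. It ranged from 6.28 to 6.64 (median 6.41) in HHR hearts and from 6.17 to 6.90 (median 6.42) in NHR hearts, a difference of -0.02 (SE 0.08, 95% confidence interval -0.20 to 0.16, limma adjusted p = 0.885). The direction was not stable over the alternatives.

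Car8 encodes a carbonic anhydrase-related protein that lacks a zinc-binding histidine and has no enzyme activity, and that binds the type 1 inositol trisphosphate (IP3) receptor, a calcium release channel. In females Car8 had log2 values of 8.13, 8.22, 8.24 and 7.92 in HHR hearts, against 7.74, 7.93, 7.84 and 7.83 in NHR hearts. In males it had 8.11, 7.99, 8.22 and 7.88 in HHR hearts, against 7.68, 8.08, 7.59 and 7.76 in NHR hearts. The strains overlapped, with 5 of 8 HHR arrays above the highest NHR array, male 2. Car8 averaged 8.09 ± 0.14 in HHR and 7.81 ± 0.15 in NHR (SD, n = 8 each), a difference of 0.28 (SE 0.07, 95% confidence interval 0.13 to 0.43, limma adjusted p = 0.00892), or 1.22-fold. Without the 3 NHR arrays that stand apart it was 0.28 (adjusted p = 0.0448).

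Of the 3 IP3 receptor genes 2 fell and 1 did not pass, beside 11.2% of named genes called lower. Itpr3 fell by 0.21 (SE 0.05, limma adjusted p = 0.00757), without overlap between the strains, and Itpr2 fell by 0.16 (SE 0.04, adjusted p = 0.0143). Itpr1, the receptor Car8 binds, averaged 9.22 ± 0.07 in HHR and 9.34 ± 0.12 in NHR (SD, n = 8 each), a difference of -0.11 (SE 0.05, adjusted p = 0.133). Without the 3 NHR arrays that stand apart Itpr2 did not pass (-0.13, adjusted p = 0.0689), and Itpr1 was -0.03 (adjusted p = 0.699).

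Transporters that work with carbonic anhydrases changed in both directions. Of 18 measured bicarbonate and proton transport genes 3 rose, 4 fell and 11 did not pass, with a median difference of -0.04, and the share called was 38.9% beside 23.1% of named genes. Slc4a3, the chloride-bicarbonate exchanger AE3 of heart muscle, averaged 9.81 ± 0.03 in HHR and 10.09 ± 0.09 in NHR (SD, n = 8 each) and fell by 0.28 (SE 0.04, limma adjusted p = 3.0e-04), and its strains did not overlap. Chp1, a calcium-binding protein, averaged 10.87 ± 0.05 in HHR and 10.44 ± 0.21 in NHR and rose by 0.43 (SE 0.07, adjusted p = 6.51e-04), also without overlap. The Chp1 rise was 0.29 (adjusted p = 0.00225) without the 3 NHR arrays that stand apart. Slc16a3, the lactate exporter MCT4, rose by 0.26 (SE 0.06, adjusted p = 0.00646). Slc4a1, the red cell exchanger band 3, fell by 0.34 (SE 0.08, adjusted p = 0.00673).

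Some close partners of the membrane-bound enzymes did not pass. Slc16a1, the lactate transporter MCT1, averaged 11.79 ± 0.11 in HHR and 11.85 ± 0.14 in NHR, a difference of -0.05 (SE 0.06, limma adjusted p = 0.60). Bsg, the chaperone of both lactate transporters, averaged 12.91 ± 0.04 in HHR and 12.81 ± 0.20 in NHR, a difference of 0.10 (SE 0.06, adjusted p = 0.226). Their differences were 0.0029 and -0.00073 without the 3 NHR arrays that stand apart, and Slc16a3 then did not pass (0.20, adjusted p = 0.062). The other calls of this list, named after their values were seen, were Slc4a5, a sodium-bicarbonate cotransporter (0.24, at a level under the dim limit), Slc26a6, an anion exchanger (-0.15), and Aqp1, a water channel that also passes carbon dioxide (-0.22).

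**Figure D3:**
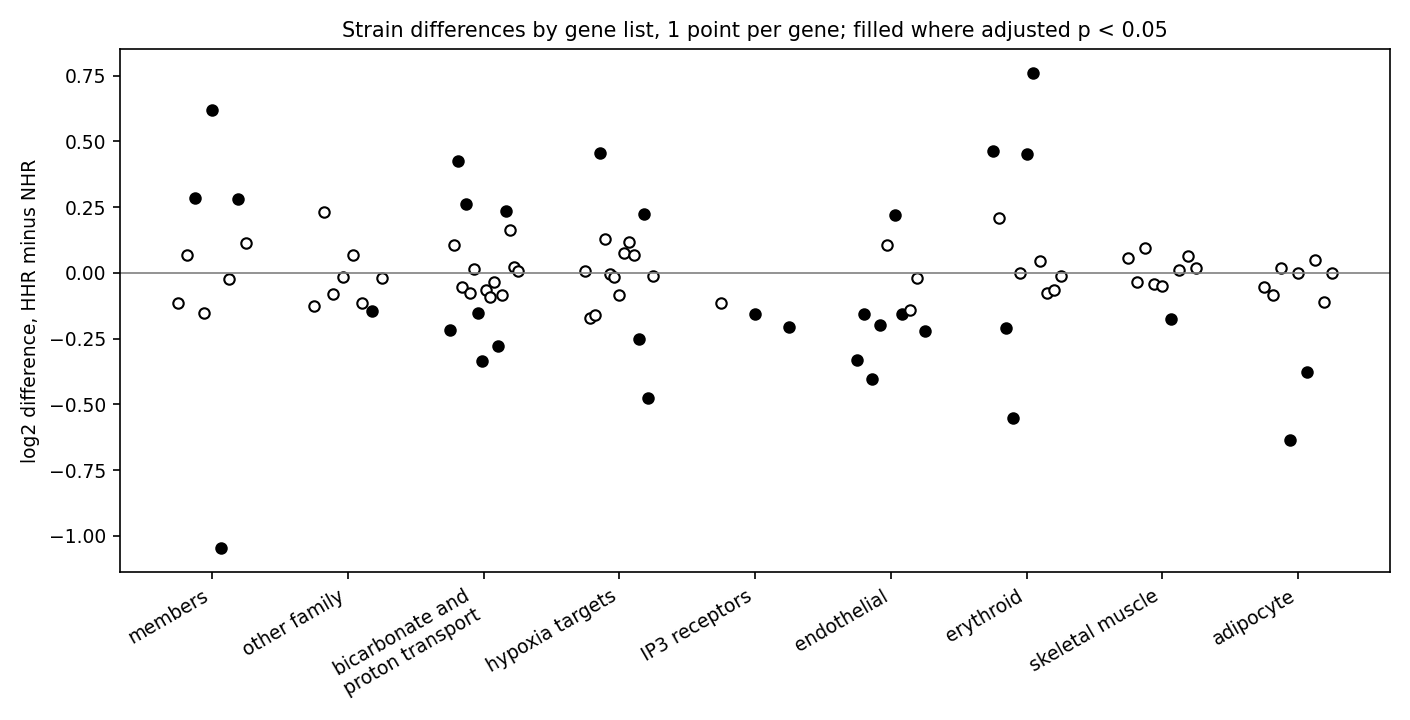
Log2 difference of HHR minus NHR (y axis) for each gene of the lists on the x axis, 1 point per gene in alphabetical order within a list, filled where limma's adjusted p was under 0.05. Car4, at -1.05, is the lowest point of all lists shown, and the transport and hypoxia lists hold filled points on both sides of 0.

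Car4 was lower and Car3, Car8 and Car14 were higher by estimate in HHR hearts of each sex. In males Car4 differed by -1.01 (SE 0.14, limma adjusted p = 5.82e-04) and Car14 by 0.27 (SE 0.07, adjusted p = 0.038), which made 2 of 9 genes beside 4.02% of all probe sets. In females Car4 differed by -1.09 (SE 0.14, adjusted p = 2.45e-04), Car3 by 0.70 (SE 0.20, adjusted p = 0.0273) and Car14 by 0.30 (SE 0.07, adjusted p = 0.00971), which made 3 of 9 genes beside 12.0% of all probe sets. In males Car3 differed by 0.53 (SE 0.20, adjusted p = 0.14), and Car8 differed by 0.27 in males (SE 0.10, adjusted p = 0.137) and by 0.29 in females (SE 0.10, adjusted p = 0.0658). The test of the difference between the sexes called 0 of 9 genes (0 at an unadjusted p under 0.05), and limma called 0% of all probe sets. Estimates of that difference ran from -0.17 to 0.22, with adjusted p of 0.994 to 1.

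Within a sex, the calls of Car14 in males and Car3 in females were lost when some single arrays were left out. The estimate did not always shrink. Car14 in males was 0.27 without HHR female 3 and 0.29 without HHR male 3. Car14 in males did not pass without HHR female 3 (adjusted p = 0.0518), HHR male 1 (0.0998), HHR male 2 (0.109), HHR male 3 (0.0578), HHR male 4 (0.0623), NHR male 1 (0.0712), NHR male 3 (0.123) or NHR male 4 (0.108). Car3 in females did not pass without HHR female 2 (0.0858), HHR female 3 (0.0945), NHR female 3 (0.0597) or NHR female 4 (0.0829). Without the 3 NHR arrays that stand apart, Car14 did not pass in females (0.30, adjusted p = 0.0565) or in males (0.23, adjusted p = 0.0933), and neither did Car3 in females (0.63, adjusted p = 0.0979). The Car3 difference in males was 0.33 without NHR male 4 (adjusted p = 0.356). Without NHR male 2, Car8 passed in males (0.0215) and in females (0.0277), and without HHR female 4 it passed in females (0.0375). Car4 passed in each sex without any single array. Males minus females differed by -0.12 to 0.15 over the 9 genes, with 0 calls (0 at an unadjusted p under 0.05, limma adjusted p of 0.787 to 0.995), beside 0.0110% of all probe sets.

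**Figure D4:**
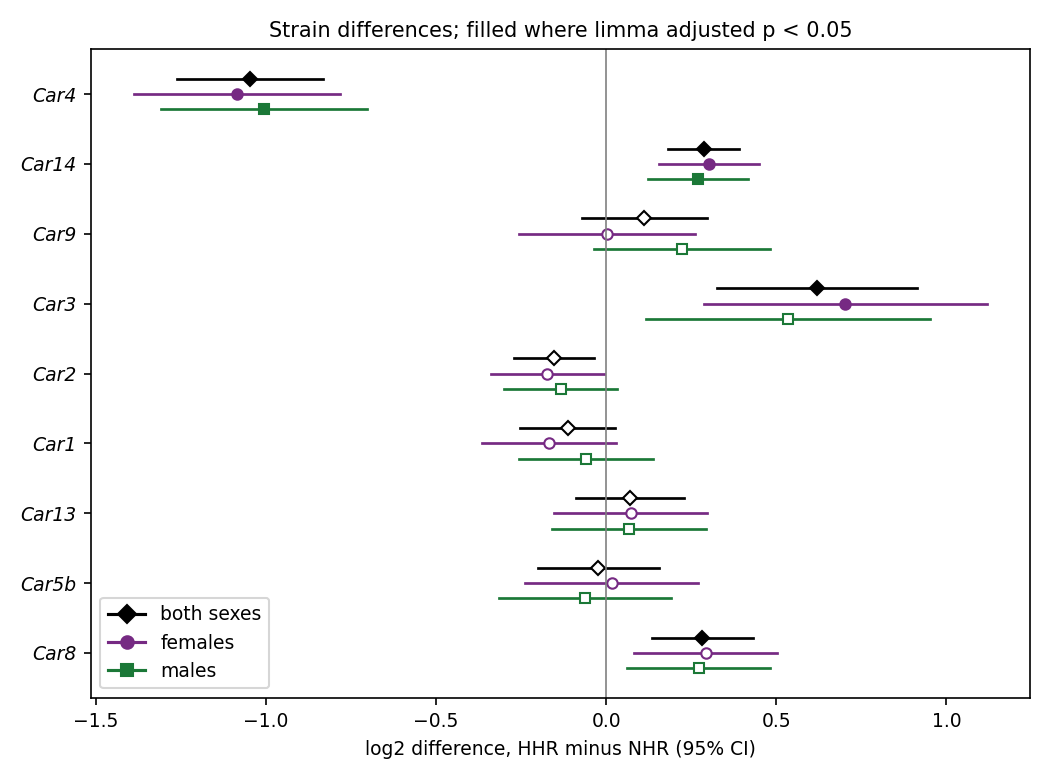
Log2 difference of HHR minus NHR (x axis) for each of the 9 genes (y axis) over both sexes, in females and in males, with the 95% confidence interval of the limma fit. Symbols are filled where the adjusted p was under 0.05. Car4 lies between -1.01 and -1.09 in every estimate, and the intervals of Car1, Car5b, Car9 and Car13 over both sexes span 0.

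Genes whose values were most like those of the called members were ranked by Pearson's r over the 16 arrays among 14315 other named genes, as a description. Nearest to Car4 were Efnb3, Nat8b, Endog, Mtr and Ncam1 (r of 0.932 to 0.961, Spearman's rho of 0.826 to 0.944), all lower in HHR. Nearest to Car14 were Dcun1d1, Cxadr, Lgals1, Smu1 and Pdlim1 (r of 0.924 to 0.935, rho of 0.868 to 0.915), all higher in HHR. Nearest to Car3 were Maged2, Opcml, Farp1, Lrrc17 and Sort1 (r of 0.905 to 0.937, rho of 0.879 to 0.929), and nearest to Car8 were Polr1h, H2ac21, Il13ra1, Rhobtb3 and Klhl13 (r of 0.860 to 0.906, rho of 0.841 to 0.885). The strain difference itself enters these values.

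With each group's mean taken out, other genes ranked first. For Car4 they were Gbe1, Gramd2b, Sf3b1, Trim2 and Il18 (r of 0.766 to 0.785, rho of 0.512 to 0.697). For Car14 they were B3gnt5, Nme6, Fadd, Chordc1 and Kctd9 (r of 0.859 to 0.944, rho of 0.715 to 0.882), for Car3 Acss3, Igsf10, Sh3glb2, Tead2 and Syt6 (r of 0.888 to 0.913, rho of 0.850 to 0.912), and for Car8 Aars2, Sptssa, Pdgfd, Sh3yl1 and Dis3l (r of 0.880 to 0.915, rho of 0.812 to 0.932). Of the measured genes that lie next to a member on the chromosome and are no members, Arhgef39 and Tpm2 beside Car9 differed by -0.00081 and 0.10 (limma adjusted p = 0.996 and 0.266), and Aph1a beside Car14 by 0.09 (adjusted p = 0.243).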

How the data were processed

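RNA of 16 neonatal rat hearts was measured on Affymetrix Rat Gene 1.0 ST arrays, 1 per sample without pooling, per the labels. The authors deposited log2 values. Per the submitters' processing notes, the tools were RMA (background correction, normalization across arrays, summary by probe set) and limma. Versions, filters, probe annotation and genome build are not stated there. The precision of a mean is limited by the number of arrays, and p-values measure the spread between these pups. Group and replicate number came from the sample titles.

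The table held 27342 probe sets, of which 15097 were annotated to a single gene symbol, 323 to several and 11922 to none. Group means were fitted to all probe sets on all 16 arrays with limma 3.58.1 in R 4.3.3 and empirical Bayes moderation, with Benjamini-Hochberg adjustment over all probe sets. The test was checked on simulated data with independent noise for each probe set and array, of the same spread in both strains. The simulation held no variation shared by arrays, so it cannot show how the test behaves with the component within groups. Contrasts were HHR minus NHR over both sexes, within males, within females, the difference between those, and males minus females. The members, the lists (transport, hypoxia, IP3 receptor, cell type markers) and the rule for named genes (all members, up to 4 list genes with the smallest adjusted p, a few named whatever their values, and the 5 genes most like each called member) were chosen with earlier results of these data known. Alternatives covered normalization, dim and unnamed probe sets, moderation, array weights, a replicate block, thresholds, arrays and sex in the fit.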

Additional observations from a re-analysis of the deposited data

Results flagged for a closer look

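In 36 tests of a lone array among the 4 of a group (9 genes in 4 groups), 2 arrays stood far from the other 3 by Dixon's criterion, where chance flags about 1 in 20. Car9 in NHR male 4 was 6.73, below the other NHR males. Car13 in HHR female 1 was 6.02, below the other HHR females, at a level under the dim limit.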

How the results depend on the processing

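The 4 strain calls over both sexes (Car3, Car4, Car8 and Car14) stayed under all the alternatives that kept the threshold of 0.05 without a minimum fold, and the count ran from 4 to 5 when single arrays were left out. With a minimum of 1.5-fold 2 genes passed. In males the count was 1 without the 3 NHR arrays that stand apart, 1 with males alone in the fit, 1 at a threshold of 0.01, 1 at 1.5-fold, and 1 to 3 without single arrays. In females it was 1 without those 3 arrays and 2 to 4 without single arrays. Of 14 context genes called, 9 passed at 0.01, 0 at 1.5-fold and 12 to 16 without single arrays. Same-numbered arrays deviated together in part, with r of -0.11 to 0.37 (median 0.09). Of 24 pairs 11 correlated above 0.1, and 9 of 16 arrays correlated best with their own number. The main fit did not take the numbers as pairs, and whether they mark a shared batch was not tested. With a replicate block 5 members passed over both sexes, Car2 among them (adjusted p = 0.039), 3 in males, with Car3 added (0.53, adjusted p = 0.0355), and 4 in females, with Car8 added (0.29, adjusted p = 0.0476). Reversals touched uncalled differences alone (21 of 982 recomputed gene values, of which 0 passed). Car5b was 0.0063 after quantile normalization, 0.012 after cyclic loess, 0.017 with array weights, 0.050 without the 3 arrays and -0.066 to 0.056 without single arrays. Car5a was 0.011, 0.0063 and 0.018 after quantile normalization, median centring and cyclic loess, 0.011 without the 3 arrays and -0.052 to 0.014 without single arrays. Ptprz1 was 0.015, 0.0018 and 0.018 after those 3 normalizations and -0.053 to 0.017 without single arrays. Car6 was -0.13 without the 3 arrays and -0.046 to 0.16 without single arrays, and Slc16a1 and Bsg were 0.0029 and -0.00073 without the 3 arrays. The cause was not tested.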

Other observations

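Among family genes outside the set, 1 of 8 measured passed for strain, or 12.5% beside 23.1% of named genes. Ptprg, a receptor phosphatase with a carbonic anhydrase-like outer domain, fell by 0.14 (SE 0.04, limma adjusted p = 0.0287), a call lost without HHR female 1 (adjusted p = 0.0629), HHR female 3 (0.0537), HHR male 1 (0.0592) or NHR male 3 (0.0598) and after median centring (0.0639). Car12, a membrane-spanning enzyme, averaged 7.07 ± 0.12 in HHR and 6.84 ± 0.34 in NHR (SD, n = 8 each), a difference of 0.23 (SE 0.11, adjusted p = 0.136). Without NHR male 4, its highest array at 7.61, the difference was 0.34 (adjusted p = 0.00201). Car12 also passed without the 3 NHR arrays that stand apart (0.36, adjusted p = 0.00328) and with array weights (0.27, adjusted p = 0.0269). Car11, a related protein without enzyme activity, differed by -0.13 (SE 0.05, adjusted p = 0.0705). Car6, the secreted enzyme of saliva, varied most within groups and differed by 0.07 (SE 0.16, adjusted p = 0.808), and Ptprz1, the other receptor phosphatase with such a domain, by -0.02 (SE 0.07, adjusted p = 0.861). Car5a (mitochondrial), Car7 (cytosolic) and Car15 differed by -0.02, -0.11 and -0.08, with adjusted p of 0.887, 0.348 and 0.30. Car7, Car15 and Ptprz1 did not pass the filter on dim probe sets, so their values cannot be told from absence of the RNA.

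The array numbered 4 gave the lowest Car3 value in each of the 4 groups, at 8.78 in HHR females, 9.01 in HHR males, 8.38 in NHR females and 8.04 in NHR males. With the group means removed, Car3 and Car9 moved together across the 16 arrays (r = 0.76), as did Car9 and Car14 (r = 0.63) and Car8 and Car14 (r = 0.54), while Car4 and Car14 gave r = -0.24. These are descriptions over arrays that share the same normalization.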
